A study of Mus musculus and Canis lupus familiaris and Equus caballus with 9 samples.

Results

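The regions described here are the mouse NRSF peaks that lie at the ends of protein-coding genes. A peak was a member when its midpoint lay within 1 kb of either annotated end of a protein-coding gene in the RefSeq gene table of GRCm38.p6, which shares its coordinates with mm10. Of the 2357 mouse peaks, 319 were members (13.5%, exact Clopper-Pearson 95% interval 12.2 to 15.0%). A further 941 peaks lay inside a protein-coding gene but more than 1 kb from an end, and 1097 lay outside protein-coding genes. Together the 319 peaks marked 345 genes, since 31 peaks were within reach of 2 genes and 4 genes had more than 1 peak at their ends.

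The study mapped NRSF by chromatin immunoprecipitation and sequencing in cell lines of mouse, dog and horse, with 2 immunoprecipitated samples and 1 input sample per species. The mouse cells were RAW264.7, an established macrophage line of the BALB/c strain, at passages 13 to 15, untreated as far as the labels say. Cells were fixed with 1% formaldehyde, and chromatin fragments of 200 to 300 bp were precipitated with a monoclonal antibody against NRSF. The deposited mouse list gives chromosome, start and end of each peak and joins both immunoprecipitated samples, so no value here carries a replicate error. The read depth is unknown, and the intervals cover counting error only. Positions alone could not check the macrophage identity against marker genes.

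NRSF, also named REST, is a zinc-finger repressor present in most cells that are not neurons. It binds the RE1 element, a long DNA sequence made of a left and a right arm, and recruits corepressor complexes with histone deacetylases and demethylases, which keep neuronal genes off. RE1 elements sit at promoters, in first introns and far from genes, and the canonical form has a fixed short spacing between the arms, whereas an expanded form has more bases between them.

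The sequences under the peaks were examined where a peak midpoint fell inside a promoter window of its own gene. RefSeq windows of GRCm38.p6 run from 250 bases before to 50 bases after an annotated transcript start, and they were given for 17492 of the 21900 protein-coding genes. A member midpoint lay inside 52 windows of 51 genes. The Neurod4 peak entered through 2 windows, only 1 of which held an element, and Chpf and Tmem198 shared 1 peak. The windows are thus not all separate peaks, although the intervals treat them as separate. The canonical element was searched on both strands as the left arm TTCAGCACC, 2 bases of any kind and the right arm GGACAGCGC, with up to 4 mismatches among its 18 fixed letters. It was found in 15 of the 52 windows (28.8%, 95% interval 17.1 to 43.1%), against 129 of all 21238 windows (0.607%). The 15 elements are shown because they are the canonical matches found under these promoter peaks, read in the direction of the left arm, with both arms in capitals and the 2 bases between them in lower case.
Lhx3: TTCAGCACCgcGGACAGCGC
Lhfpl5: TTCAGCACCgcGGCCAGCGC
Ttc9b: ATCAGCACCggGGACAGCGC
Hrh3: GGCAGCACCacGGACAGCGC
Ogdhl: GTCAGCACCtcGGACAGCGA
Scamp5: TTTAGCACCacGGACAGCTC
Syn1: TTCAGCACCgcGGTCAGAGC
Amer3: GTCAGCACCacGGCCAGCTC
Dner: TTCAGCACCaaGGACAAGGG
Fbll1: GTCAGCACCagGGACAGCTA
Htr5a: AGCGGCACCgtGGACAGCGC
Rph3a: GTCAGTACCacGGACAGCAC
Cpne9: TTCAGGACCatGGATAGTTC
Marchf4: TTCAGCACCtgGGTGAGTGG
Tmem179: GTCAGTACCgcGGACAGTTC

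Only the Lhx3 window of all 21238 held the element with no mismatch, and its peak at chr2:26208075-26208475 had its midpoint 7.5 bp from the centre of the element. Lhx3 encodes a LIM homeodomain factor of motor neuron and pituitary development. Lhfpl5, which encodes a part of the hair-cell transduction complex, and Ttc9b each had 1 mismatch. Hrh3, a histamine receptor of the brain, Scamp5, a secretory carrier protein of synaptic vesicles, Syn1, encoding synapsin I, and Ogdhl, a relative of a mitochondrial dehydrogenase, had 2 mismatches each. In all 15 windows the centre of the element lay within 23.5 bp of the peak midpoint, with a median of 3.5 bp, although the windows are 300 bases long. The elements stood in either direction relative to the gene, 7 along it and 8 against it. They covered positions from 232 bases before to 34 bases after the transcript start.

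A second set of windows held both arms further apart. With up to 2 mismatches in each arm and 7 to 10 bases between them, this expanded form was found in 12 of the 52 windows (23.1%, 95% interval 12.5 to 36.8%), compared with 232 of all windows (1.09%). In 11 of the 12 there was no canonical match. Those 11 are shown with the arms in capitals and the bases between them in lower case.
Tph2: TTCAGCACCagggttctGGACAGCGC
Unc13a: TTCAGCACCgggggcgcGGACAGCGC
Grm2: TTCAGCACCacactgtGGACAGCTC
Kcnh6: TTCAGCACCacgacgcGGACAGCTC
Actl6b: ATCAGCACCgaggcggccGGACAGCTC
Ckmt1: TTCAGCACTaagtagaGGACAGCAC
Gsx1: TTCAGCACCactagcgctGGCCAGCAC
Lrp11: ATCAGCACCggcgtgcGGACAGCGG
Slc39a3: TTCAGTACCacgcgaccctGGACAGCTC
Neurod4: TTCAGTACCacagtctctGGGCAGCTC
Ppm1e: ATCAGCACTgggttgcctGGAGAGGGC

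Tph2, encoding the serotonin-synthesizing enzyme of the brain, and Unc13a, a priming factor of synaptic vesicles, held both arms without a mismatch, each with 8 bases between them. Grm2, a metabotropic glutamate receptor, and Kcnh6, a voltage-gated potassium channel, had 1 mismatch and 7 bases between the arms. Actl6b, encoding the actin-like subunit of the neuronal BAF chromatin remodeller, had 2 mismatches and 9 bases. The centres of the expanded elements lay 2 to 17 bp from the peak midpoint, with a median of 6 bp, beside the median of 3.5 bp for the canonical ones.

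**Figure D1:**
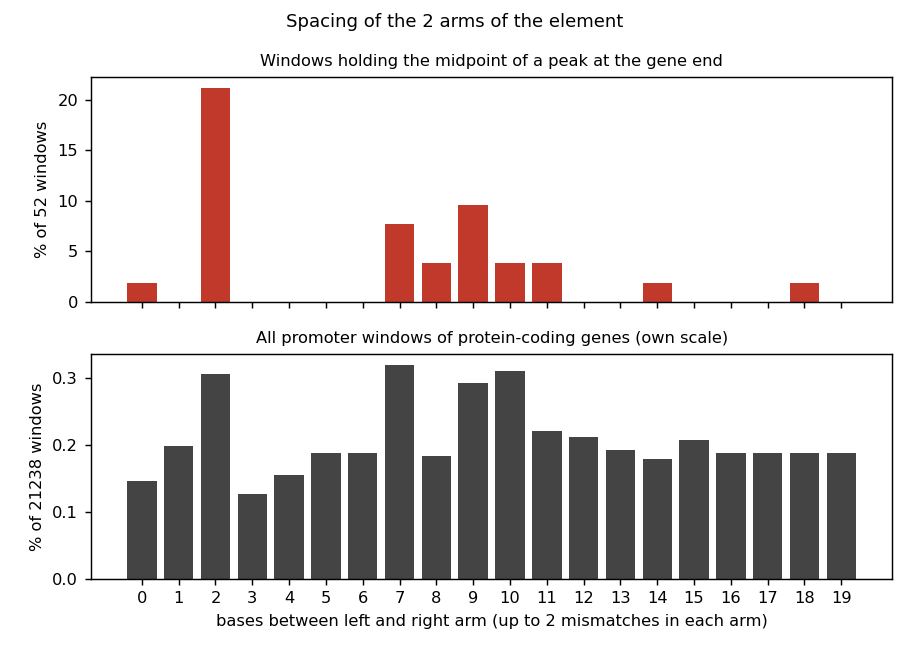
Share of promoter windows (%) that hold both arms of the element with up to 2 mismatches in each arm, by the number of bases between the arms, for the 52 windows with a member midpoint (top) and all 21238 windows (bottom, on its own scale). In the 52 windows the bars stand at 2 bases (21.2%) and at 7 to 11 bases (3.85 to 9.62%), with single windows at 0, 14 and 18 bases, and no window had 3 to 6 bases between the arms.

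Spacing was compared from 0 to 19 bases between the arms. The 2-base spacing occurred in 11 of the 52 windows and in 65 of all windows (0.306%). Spacings of 7, 8, 9 and 10 bases occurred in 4, 2, 5 and 2 of the 52, a spacing of 11 bases in 2, spacings of 0, 14 and 18 bases in 1 each, and all other spacings in none of the 52. Among all windows every spacing from 0 to 19 bases occurred, at 0.127 to 0.320%.

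In 5 further windows (9.62%) a single arm was present without a mismatch, compared with 163 of all windows (0.767%) that held neither other form. The left arm stood in the windows of Scg2, a granin of dense-core granules, Psd and Cyb5r4. The right arm stood in those of H1f4, a linker histone, and Psmd6, a proteasome subunit. The Scg2 arm began 7 bases before the transcript start and lay 6 bp from the peak midpoint, and 4 of the 5 arms lay within 25 bp of it, the exception being Cyb5r4 with 41 bp.

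Counting canonical, expanded and single exact arms, 31 of the 52 windows held a match (59.6%, 95% interval 45.1 to 73.0%), against 520 of all windows (2.45%). Of the 15 windows of neuronal classes, which are defined with the gene classes, 12 held a match (80.0%, 95% interval 51.9 to 95.7%). Of the other 37 windows, 19 did (51.4%, 95% interval 34.4 to 68.1%). The 2 intervals overlapped, which does not show equal shares, and the difference was not tested. In 21 windows these letters were not found. Some of these held the midpoint next to a window edge, such as Nr6a1 (midpoint 38926415, window from 38926412) and Slc17a6 (midpoint 51621875, window to 51621879). An element centred on such a midpoint would run past the bases searched, so its absence there is not shown. The shares of both groups carry the same limit.

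**Figure D2:**
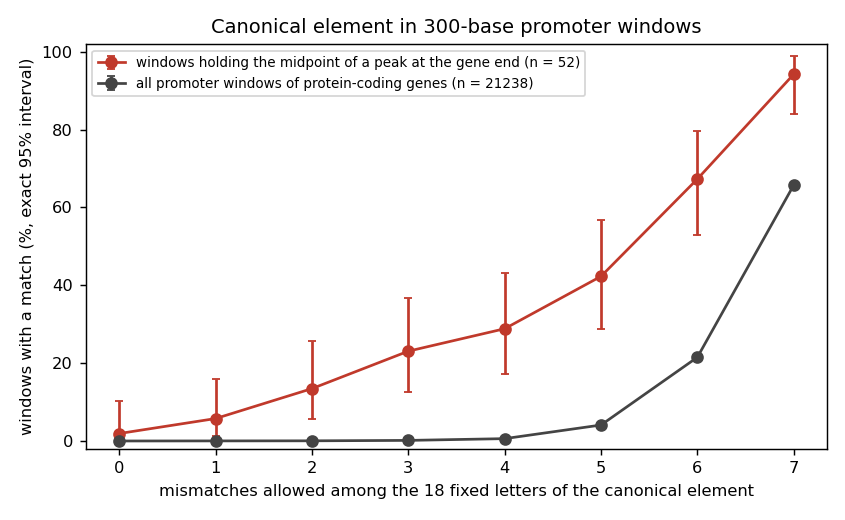
Share of promoter windows (%, with exact 95% intervals) in which the canonical element is found, by the number of mismatches allowed among its 18 fixed letters. The 52 windows with a member midpoint reached 28.8% at 4 mismatches and 42.3% at 5, and all 21238 windows 0.607% and 4.11%.

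The reverse view was taken over all windows, including those of genes without a peak at an end. Of the 10 windows with up to 2 mismatches to the canonical element, 8 met a peak. Those without were windows of Osbp2 and of Celsr3, a cadherin of axon tracts. With exactly 3 mismatches 6 of 23 windows met a peak, with 4 mismatches 4 of 96 and with 5 mismatches 10 of 743 (1.35%). Among all 21238 windows, whatever their mismatches, 124 met a peak. GC content was 61.2% in the median of the 52 windows and 56.3% over all windows.

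**Figure D3:**
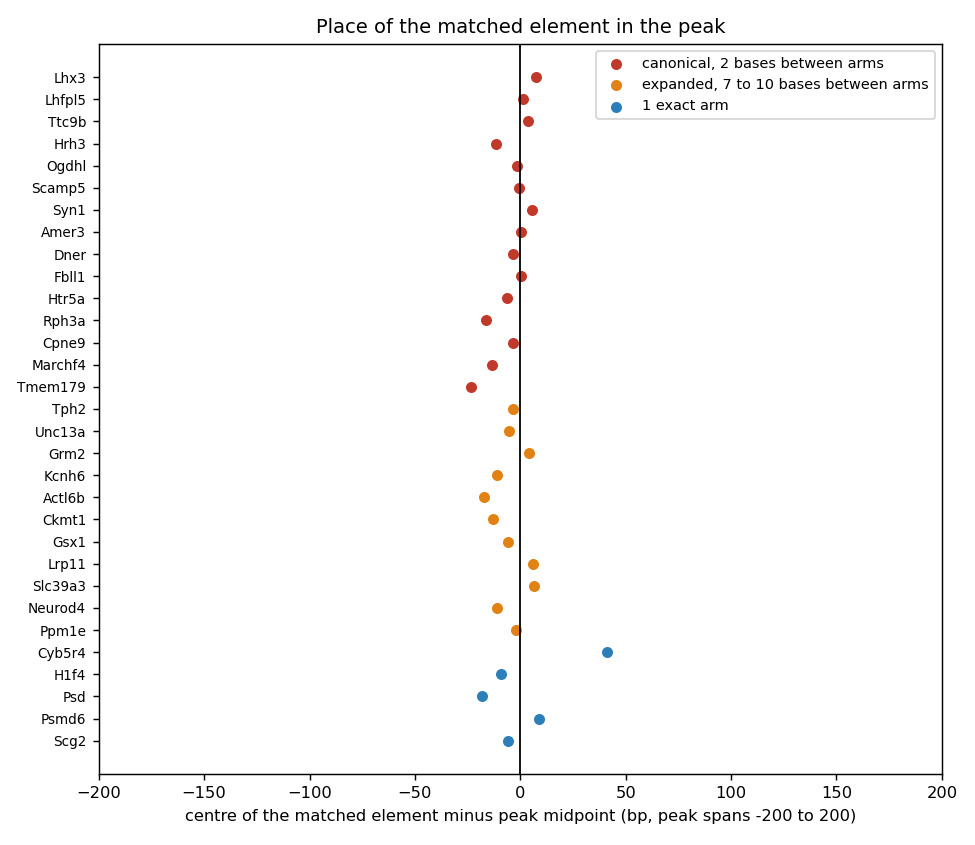
Distance from the peak midpoint to the centre of the matched element (bp along the genome) for each of the 31 windows with a match, by form. Apart from the single arm of Cyb5r4 at 41 bp, every point lies within 23.5 bp of the midpoint of its 400 bp peak.

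Whole promoter windows show where the element sits relative to the transcript start, which follows the first 250 bases of each window. For each gene class with a canonical match, the window with the fewest mismatches is given, 5′ to 3′ along the gene, with the element in capitals. The windows are Lhx3 (chr2:26208200-26208499, minus strand), Lhfpl5 (chr17:28575469-28575768, plus strand), Ttc9b (chr7:27653674-27653973, plus strand), Scamp5 (chr9:57468011-57468310, minus strand) and Hrh3 (chr2:180104358-180104657, minus strand).
Lhx3: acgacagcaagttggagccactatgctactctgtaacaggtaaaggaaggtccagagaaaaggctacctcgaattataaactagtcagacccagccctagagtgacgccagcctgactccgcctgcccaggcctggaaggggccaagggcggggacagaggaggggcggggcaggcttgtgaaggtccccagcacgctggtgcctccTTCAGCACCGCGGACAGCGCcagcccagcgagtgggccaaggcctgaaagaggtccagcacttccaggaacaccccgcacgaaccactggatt
Lhfpl5: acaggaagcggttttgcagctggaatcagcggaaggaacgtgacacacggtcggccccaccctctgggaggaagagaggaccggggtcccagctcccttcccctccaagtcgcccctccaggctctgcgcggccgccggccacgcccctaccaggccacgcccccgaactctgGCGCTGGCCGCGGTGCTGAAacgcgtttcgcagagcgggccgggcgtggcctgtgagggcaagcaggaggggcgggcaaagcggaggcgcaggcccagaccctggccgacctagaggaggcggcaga
Ttc9b: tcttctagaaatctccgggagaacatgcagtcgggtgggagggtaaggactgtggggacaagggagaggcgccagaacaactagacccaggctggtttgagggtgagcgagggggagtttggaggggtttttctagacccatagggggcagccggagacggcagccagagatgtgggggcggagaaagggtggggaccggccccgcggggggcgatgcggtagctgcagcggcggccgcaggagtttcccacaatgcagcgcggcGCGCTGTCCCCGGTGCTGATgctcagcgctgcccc
Scamp5: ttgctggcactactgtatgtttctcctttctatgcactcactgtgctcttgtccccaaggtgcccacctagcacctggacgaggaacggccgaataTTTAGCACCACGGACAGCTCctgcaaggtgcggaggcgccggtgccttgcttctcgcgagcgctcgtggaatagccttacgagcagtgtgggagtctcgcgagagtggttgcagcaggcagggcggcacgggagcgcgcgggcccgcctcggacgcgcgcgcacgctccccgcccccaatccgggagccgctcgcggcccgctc
Hrh3: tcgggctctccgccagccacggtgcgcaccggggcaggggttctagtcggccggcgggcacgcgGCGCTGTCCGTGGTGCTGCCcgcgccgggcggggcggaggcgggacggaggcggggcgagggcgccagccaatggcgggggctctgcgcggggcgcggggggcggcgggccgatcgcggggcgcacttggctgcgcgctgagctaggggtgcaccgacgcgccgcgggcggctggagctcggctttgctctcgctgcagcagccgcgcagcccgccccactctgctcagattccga

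The Ttc9b element lay after the transcript start and the other 4 before it. The Lhfpl5 window belongs to a transcript start other than the outermost start of the gene, from which the peak midpoint was 281 bp away. For contrast, Ogdh, encoding a subunit of the oxoglutarate dehydrogenase complex of the citric acid cycle, and Pias3, a SUMO ligase, had the peak midpoints closest to the transcript start of the window among windows without a match, 5 bp after and 10 bp before it. Measured from the outermost start of the gene, the same midpoints lay at 578 and 4 bp. Their windows (chr11:6291920-6292219, plus strand, and chr3:96696125-96696424, plus strand) are given in lower case throughout, since no part was matched.
Ogdh: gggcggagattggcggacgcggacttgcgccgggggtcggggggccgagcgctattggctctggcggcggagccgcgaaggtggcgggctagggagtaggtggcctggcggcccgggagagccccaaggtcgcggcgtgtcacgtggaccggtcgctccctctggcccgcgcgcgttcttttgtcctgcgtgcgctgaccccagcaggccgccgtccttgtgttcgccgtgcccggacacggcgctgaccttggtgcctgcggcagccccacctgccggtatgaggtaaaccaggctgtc
Pias3: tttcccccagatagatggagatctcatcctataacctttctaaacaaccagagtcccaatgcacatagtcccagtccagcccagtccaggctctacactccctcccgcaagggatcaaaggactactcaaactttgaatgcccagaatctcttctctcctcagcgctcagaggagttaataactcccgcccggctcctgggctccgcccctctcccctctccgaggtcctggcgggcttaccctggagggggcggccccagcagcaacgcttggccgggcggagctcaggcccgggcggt

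Genes were sorted into 11 neuronal classes of 1162 genes, 14 other classes by function or symbol family, genes with predicted or clone names, and a remainder in no class. Over all 21900 protein-coding genes, 1.58% had a peak at an end. Of the 1162 neuronal genes 100 did (8.61%, 95% interval 7.06 to 10.4%), and of the other 20738 genes 245 did (1.18%, 95% interval 1.04 to 1.34%). Neuronal genes therefore made up 29.0% of the 345 genes marked (95% interval 24.3 to 34.1%), and 219 of the 319 peaks (68.7%) were at no gene of a neuronal class. The role of NRSF at neuronal genes was known when the classes were drawn up, so these shares are descriptions and not independent evidence of that role.

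**Figure D4:**
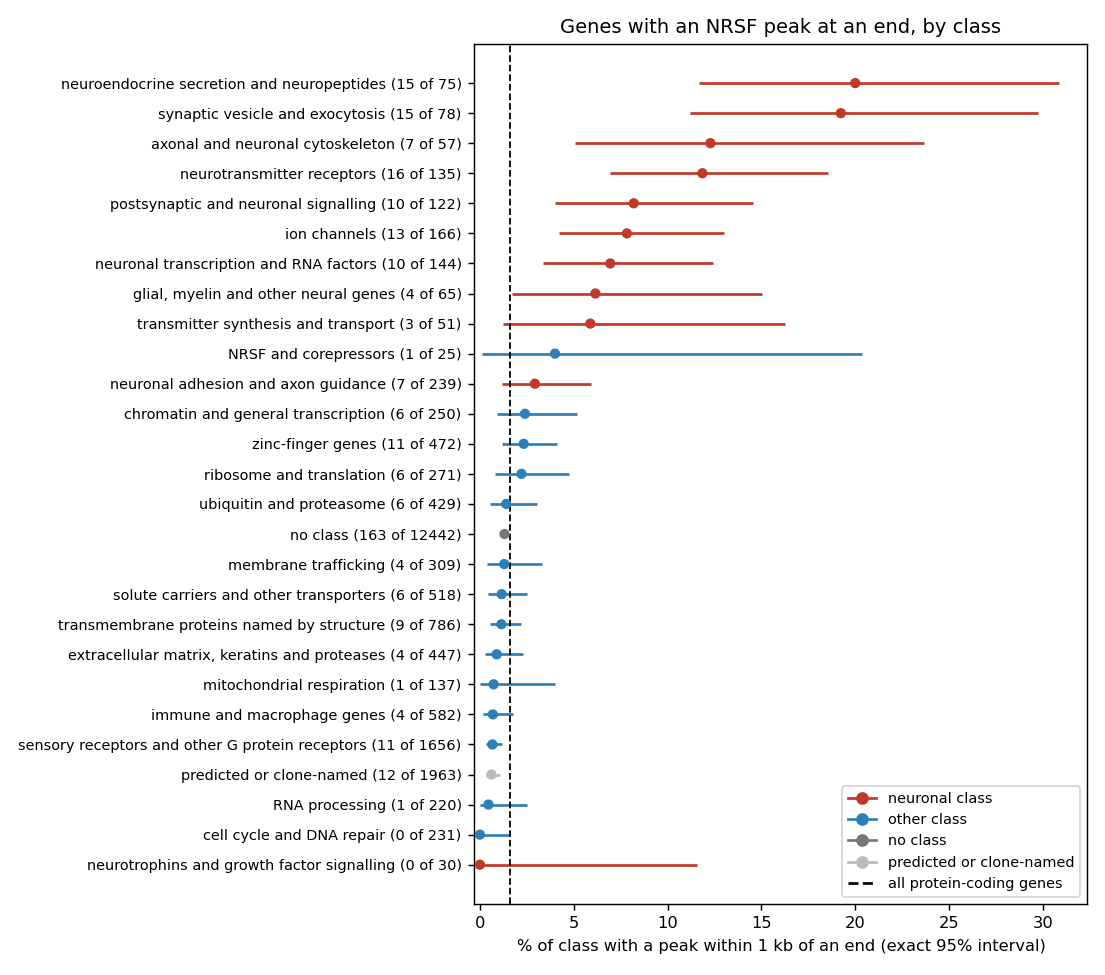
Share of each gene class (%, points, with exact 95% intervals as lines) that has a peak midpoint within 1 kb of an annotated end; the dashed line is the 1.58% of all protein-coding genes. Neuroendocrine and synaptic vesicle genes stand at 20.0% and 19.2%, and the sensory receptor and immune classes at 0.664% and 0.687%.

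Genes of neuroendocrine secretion and neuropeptides had the highest share, with 15 of 75 (20.0%, 95% interval 11.6 to 30.8%). In 12 of the 14 with a known strand the peak was at the start of the gene. The closest midpoints were 1 bp beyond the 3′ end of Nppa, the precursor of atrial natriuretic peptide, 9 bp before the start of Scg2, 51 bp after the start of Nxph1, a neurexin ligand, and 107 bp after the start of Vip, a neuropeptide. Others in the class, named after their values were seen, were the granins Chga and Chgb, the hormone precursors Pomc, Crh, Sst and Ucn, the prohormone convertase Pcsk1, and Nppb, whose peak lay 391 bp before its start. The class takes in hormone and natriuretic peptide genes, so Nppa and Nppb are counted as neuronal here by class and not by a known role in neurons.

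Synaptic vesicle and exocytosis genes followed with 15 of 78 (19.2%, 95% interval 11.2 to 29.7%), and 11 of the 12 with a known strand were marked at the start. Unc13a and Cplx3, a complexin that regulates vesicle fusion, had midpoints 29 and 66 bp after the start, Svop, a vesicle transporter-like protein, 105 bp inside an end, and Scamp5 145 bp before the start. Snap25, a SNARE protein of vesicle fusion named after its value was seen, had its midpoint at 916 bp.

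Neurotransmitter receptors were marked at 16 of 135 genes (11.9%, 95% interval 6.93 to 18.5%). The serotonin receptors Htr5a and Htr6 had peaks 29 bp after the start and 89 bp before the 3′ end. Hrh3 was marked 111 bp before its outermost start, and Grin1, the obligatory NMDA receptor subunit, 162 bp after it. Chrnb2, a nicotinic acetylcholine receptor subunit, the glycine receptor genes Glra1 and Glra3, and the dopamine receptor gene Drd2, all named after their values were seen, also carried a peak at an end.

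Axonal and neuronal cytoskeleton genes stood at 7 of 57 (12.3%, 95% interval 5.08 to 23.7%). Cdk5r1, the activator of CDK5, and Rundc3a had midpoints 42 and 91 bp inside an end. Stmn3, which binds tubulin, was marked 285 bp after the start and Mapk8ip2, a kinase scaffold, 406 bp before it. Ion channels were marked at 13 of 166 genes (7.83%, 95% interval 4.24 to 13.0%), and all 8 of known strand were marked at the start. The closest were Dpp10, an auxiliary subunit of A-type potassium channels, at 20 bp, and the potassium channel genes Kcnh6, Kcns2 and Kcnt1 at 59, 100 and 264 bp. Postsynaptic and neuronal signalling genes stood at 10 of 122 (8.20%), with Ncdn, encoding neurochondrin, Olfm3, Syndig1l and Sez6 at 65, 142, 262 and 328 bp.

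Neuronal transcription and RNA factors were marked at 10 of 144 genes (6.94%, 95% interval 3.38 to 12.4%). Srrm3, a regulator of neuronal microexon splicing, had its midpoint 25 bp after the start, Lhx3 26 bp before it, Neurod4, a proneural factor, 39 bp after it, and Scrt1, a neuronal zinc-finger repressor, 151 bp outside an end. Of the genes for transmitter synthesis and transport, 3 of 51 were marked (5.88%, 95% interval 1.23 to 16.2%), namely Tph2 and Slc17a6, a vesicular glutamate transporter, at 17 and 45 bp after the start, and Slc18a1, a vesicular monoamine transporter, at 663 bp. Glial, myelin and other neural genes had 4 of 65 (6.15%), namely Disp2, Aplp1, Sarm1, which drives axon degeneration, and Pgbd5 at 43, 545, 571 and 779 bp.

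The neuronal classes were not alike. Adhesion and axon guidance genes, the class with the most members of the 11, had a peak at 7 of 239 (2.93%, 95% interval 1.19 to 5.94%), an interval that holds the 1.58% of all genes. So does the wide interval of transmitter synthesis and transport, 1.23 to 16.2%. The adhesion interval lay below those of the neuroendocrine, synaptic vesicle and receptor classes and overlapped those of the other neuronal classes. The closest adhesion and guidance genes were Cntnap5c, Slitrk1, Unc5a, a netrin receptor, and Cntnap2 at 136, 344, 384 and 766 bp. Of the 30 neurotrophin and growth factor signalling genes none had a peak at an end, which allows a share of up to 10% by 3 counts of the total, and up to 11.6% by the exact 95% interval.

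Among genes outside the neuronal classes, 70 belonged to the 14 other classes, 163 to no class, and 12 were predicted or clone-named genes. Genes in no class were marked at 163 of 12442 (1.31%, 95% interval 1.12 to 1.53%). This interval holds the 1.18% of all genes outside the neuronal classes and lies below the 1.58% of all genes, which includes the neuronal ones. Rest itself, the gene of NRSF, was marked at chr5:77265665-77266065, with the midpoint 371 bp inside an end, and was the only gene of the 25 in the class of NRSF and its corepressors. Outside that class, Sap30, a subunit of the SIN3 histone deacetylase complex, had a midpoint 35 bp after its start. Ctbp1, a corepressor named after its value was seen, had a peak 391 bp before its start.

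Macrophage and immune genes were marked at 4 of 582 (0.687%, 95% interval 0.188 to 1.75%). These were the class I histocompatibility genes H2-T23 and H2-T-ps, at 56 and 98 bp, the chemokine gene Ccl17, 143 bp inside its 3′ end, and Cd300e. Cell cycle and DNA repair genes had none of 231, which allows up to 1.30% by 3 counts of the total, and up to 1.58% by the exact 95% interval. Genes for RNA processing had 1 of 220, Ddx25, and mitochondrial respiration 1 of 137, Atp5pb. The symbol patterns of the latter class did not take in Cyc1, a respiratory chain gene that was marked and is counted in no class. Ribosome and translation genes had 6 of 271 (2.21%, 95% interval 0.817 to 4.76%), among them Eef1a1, the translation elongation factor, and Rpl37a at 337 and 495 bp. Chromatin and general transcription genes had 6 of 250 (2.40%), with H1f4 67 bp before its start, Smarcal1 470 bp and Sirt7, a deacetylase of the sirtuin family, 484 bp after it. The ubiquitin and proteasome class had 6 of 429, with Usp46, Psmd6 and Rnf213 at 81, 100 and 115 bp.

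Remaining classes were at or below the overall share of 1.58% except the zinc-finger genes, whose 95% interval of 1.17 to 4.13% holds that share. Membrane trafficking had 4 of 309, among them Rab39, Rab28 and Ap3b2 at 62, 373 and 542 bp, the last a subunit of the neuronal form of the AP-3 adaptor complex. Solute carriers and other transporters had 6 of 518, with Atp6v1b2, Slc39a3, a zinc transporter, and Slc26a4 at 161, 197 and 390 bp. Extracellular matrix, keratin and protease genes had 4 of 447, with Prss27, Krt86 and Mmp24 at 246, 353 and 443 bp. Proteins named only by structure had 9 of 786, with Ttc9b, Tmem198 and Tmem179 at 21, 33 and 120 bp.

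Of the genes in no class, the 15 with the smallest distance had midpoints within 47 bp of an end. Smpd3, a neutral sphingomyelinase, had its midpoint exactly at an end. Gsx1, a homeobox factor of the developing brain, Pias3, Marchf4 and Lrp11 followed at 1, 4, 6 and 8 bp from the start. Several encode metabolic enzymes: Cyp27b1, which activates vitamin D, at 19 bp, Fads1, a fatty acid desaturase, and Cyp51, an enzyme of sterol synthesis, at 28 bp each, and Cyc1, the cytochrome c1 of the respiratory chain, at 43 bp. Hes1, a Notch-driven repressor, lay at 28 bp and Gvin1, an interferon-induced GTPase, at 25 bp. Gvin1 spans 58806 bp, and a predicted gene of 58850 bp on the same chromosome had its midpoint 22 bp inside an end. Whether these are similar copies was not tested, so the Gvin1 peak may be uncertain for its single gene. Nr6a1, a nuclear receptor of germ cells, and Ppm1e stood at 46 bp each and Lexm at 47 bp.

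Some of these genes have neural or sensory roles that the classes did not hold. By general knowledge applied after the values were seen, 22 of the 245 do, 21 of them in no class. They include Dner, a Notch ligand of neurons, 144 bp before its start, Actl6b 234 bp and Lhfpl5 281 bp after theirs, and Bsx, a hypothalamic homeobox factor, 272 bp before. Cnga3, a channel of cone photoreceptors, was marked 334 bp and Tnr, the matrix protein tenascin-R, 546 bp after the start. Nr2e1, a nuclear receptor of neural stem cells, Gja10, a connexin of retinal horizontal cells, and Camk2n2, an inhibitor of CaMKII, were marked inside their 3′ ends. Ric3, a chaperone of nicotinic receptors, was marked 957 bp inside an end. This count depends on what is known of each gene and sets no limit on how many others have such roles.

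A peak beside a gene outside the neuronal classes was in some cases also beside a neuronal gene. For 7 of the 245 genes the peak lay within 1 kb of an end of a neuronal gene too, and for 17 a neuronal gene lay within 10 kb of the midpoint. Examples are Qsox2 beside Lhx3, Lman1l beside Cplx3, Tmco4 beside Htr6, Atp6v1b2 beside Slc18a1 and Riiad1 beside Celf3. Chpf and Tmem198 shared a peak at chr1:75479365-75479765, within 10 kb of the channel gene Asic4. The other 228 genes had no gene of a neuronal class within that distance. The same counts were not made over all genes outside the neuronal classes. They are therefore not shown to be particular to the marked genes. Peak positions do not say which of 2 neighbours is regulated.

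The annotated strand was available for 275 of the 345 genes, through the promoter windows. In 200 of the 275 the nearer end was the start of the gene (72.7%, 95% interval 67.1 to 77.9%), although each gene offers 1 start and 1 other end. The share was 62 of 74 for neuronal genes (83.8%, 95% interval 73.4 to 91.3%) and 138 of 201 for the others (68.7%, 95% interval 61.8 to 75.0%). These intervals overlapped, which does not show equal shares, and the difference was not tested. Around starts, 79 of 200 midpoints lay within 250 bp, and 72 of 200 lay upstream (36.0%, 95% interval 29.4 to 43.1%). The start here is the outermost annotated start of the gene, and most midpoints lay on its transcribed side. A peak at a transcript start further inside the gene therefore counts as after the start. At Ckmt1 the midpoint lay 687 bp after the outermost start, while its element covered positions -175 to -151 from another transcript start. In the 100 bp after the start there were 23 genes, the highest count of any such bin. Around the other ends, 16 of 75 lay within 250 bp (21.3%, 95% interval 12.7 to 32.3%). When a peak had to touch the gene end itself, 97 genes were left, and the share at starts was 87.3%.

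**Figure D5:**
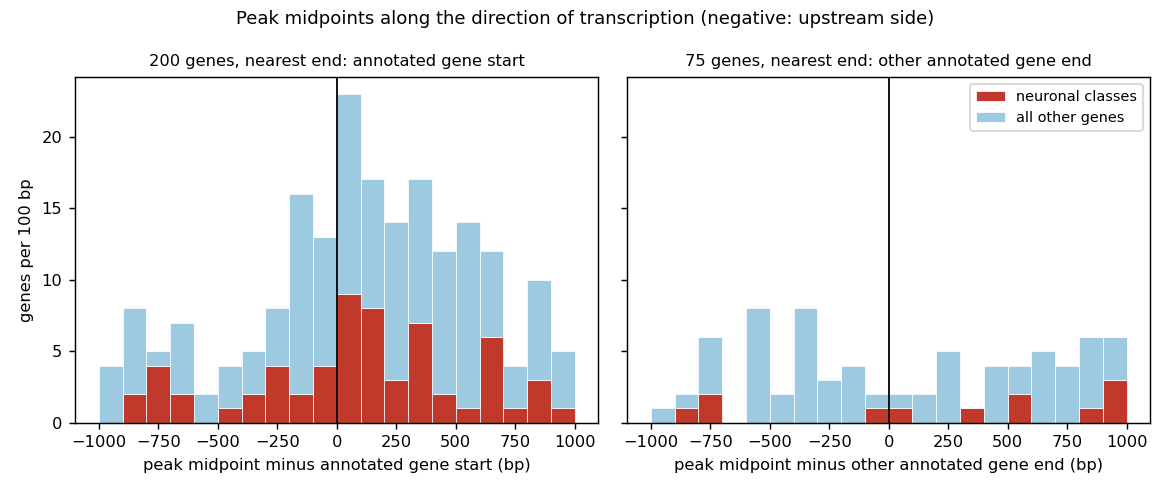
Number of genes per 100 bp of distance from the peak midpoint to the nearer annotated end, for 200 genes nearest at the start (left) and 75 nearest at the other end (right), along the direction of transcription, with neuronal classes in red. The count at starts is highest in the 100 bp after the start, with 23 genes, and the 100 bp after the other end hold 2 genes.

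Over all 345 genes the median distance from midpoint to end was 391 bp, with 339.5 bp for neuronal genes and 412 bp for the others. The midpoint lay inside the gene span in 209 of 345 genes (60.6%). Median gene length was 24047 bp for the 100 neuronal genes, against 37874 bp for all neuronal genes, and 14760 bp for the 245 others, against 16684 bp for all genes outside the neuronal classes. A further peak inside the gene or within 10 kb of it was present for 19 of the 100 neuronal genes and 36 of the 245 others. No such count was made over all protein-coding genes, and longer genes leave more room for a peak. These counts therefore do not show a trait of either group. The highest counts of peaks inside the gene or within 10 kb were at zinc-finger genes of chromosome 4. Zfp993 had 11, Zfp985 had 5 and Zfp988 had 4, of which 2, 1 and 2 were at an end. Cacng2, an AMPA receptor auxiliary subunit, and Pde2a, a cyclic nucleotide phosphodiesterase, also had 4 peaks each, of which 1 was at an end.

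At the edge of the 1 kb reach, the last genes inside were Carmil3, Naip5 and Psd, with midpoints at 989, 990 and 992 bp. Those just outside were Rpl11 at 1001 bp, Gprin1 at 1021 bp and Tmem145 at 1025 bp.

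Some members of multigene families had peaks at nearly the same distance from an end. They were picked for these distances after the values were seen, and the identity of the copies was not measured. Of the 22 genes of major urinary proteins, Mup10, Mup22, Mup14, Mup18 and Mup13, all on chromosome 4, each had a peak 720 to 723 bp beyond an end. On chromosome 11 the olfactory receptor genes Olfr1, Olfr20, Olfr376 and Olfr378 had midpoints 494 to 513 bp inside an end, and the vomeronasal receptor genes Vmn1r91 and Vmn1r125 on chromosome 7 had them 659 and 663 bp outside. In all, 6 of 1110 Olfr genes and 3 of 355 Vmn genes had a peak at an end, and Olfr372 at 380 bp, Olfr851 and Vmn2r44 at 62 bp did not share these distances. Sensory and other G protein receptors as a class stood at 11 of 1656 (0.664%, 95% interval 0.332 to 1.19%), the closest being Vmn2r44, Olfr851 and Tas1r3, a taste receptor. Reads from similar gene copies can be hard to assign, and the labels and files do not say how the authors treated them, so each of these peaks is uncertain for its single gene.

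Zinc-finger genes had a peak at 11 of 472 (2.33%, 95% interval 1.17 to 4.13%), and 6 of the 11 were marked at the 3′ end. The closest were Zfp963 at 164 bp, Zfp113 at 229 bp and Zfp988 at 248 bp. On chromosome 4, Zfp985, Zfp987, Zfp988 and Zfp993 were marked by 6 peaks, all of them in bins of 1 Mb that hold 10 or more peaks. If these genes are similar copies, which was not measured, their peaks too are uncertain for a single gene. The counts of all marked zinc-finger genes and of those marked at the 3′ end include them. Zfp988 and Zfp993 had 2 peaks each at the 3′ end, Qsox2 had 1 at each end, and a predicted gene had 3. On chromosome 7, Zfp580 and Zfp784 shared a peak that lay 626 bp after the start of the former and 699 bp before the start of the latter.

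By chromosome, X held 2 of the 319 peaks (0.627%, 95% interval 0.0760 to 2.25%), those of Syp, encoding synaptophysin, and Syn1, whereas it holds 4.41% of protein-coding genes. Chromosome 4 held 32 peaks (10.0%, 95% interval 6.96 to 13.9%) and 6.06% of the genes. The part of chromosome copy number and of read mappability in these shares was not tested. Another peak lay within 10 kb for 28 of the 319 members (8.78%, 95% interval 5.91 to 12.4%), compared with 12.5% of the peaks deeper inside genes (95% interval 10.5 to 14.8%) and 9.75% of those outside genes (95% interval 8.06 to 11.7%). These intervals overlapped, and the differences were not tested. An end of a non-coding gene was within reach for 31 member peaks, of which 23 were at a long non-coding RNA gene and 4 at a microRNA gene. The other mouse peaks were not counted in this way, so this is not shown to be particular to the members.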

How the data were processed

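The mouse peak list was deposited by the authors as chromosome, start and end, with no score, and was used with the positions as given. Per the submitters' processing notes, Bowtie 0.12.8 and MACS 1.4.2 were used, with no role stated, and mm10 is among the builds. The peak threshold, the way replicates were joined and the treatment of reads that fit several places are not stated in the labels or files. Every mouse peak is 400 bp wide and every start is a multiple of 5. Positions may count from 0 or 1, so distances can be off by 1 base.

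Midpoints were compared with both ends of the 21900 protein-coding genes of RefSeq GRCm38.p6. A peak counted for every gene in reach. A gene went to the first class whose symbol pattern it matched. Of 21263 promoter windows of protein-coding genes, 21238 had distinct coordinates. Strand came from these windows. Both searches were tested on simulated data. Members and lists were chosen with earlier results of these data known. Named were the 4 closest genes of each neuronal class, the 3 closest of each other class, the 15 closest in no class, Rest, genes with several peaks at an end and genes at the edge of the reach; 1 gene under this rule is not reported here. The search for a single arm was added after the data were seen. Whole windows were printed only for classes with a canonical match, and for 2 windows without a match. No test was run, because the data are 1 list with no replicate values. Python 3.11.15, numpy 2.4.6, pandas 2.3.3, scipy 1.17.1 and matplotlib 3.10.9 were used.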

Additional observations from a re-analysis of the deposited data

How the results depend on the processing

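Of 30 alternative values for 5 results, 22 stayed within a preset margin, which was 1.5 times for counts and the 95% interval for shares. With a reach of 500 bp, 196 peaks and 205 genes were left, and the share at starts was 79.6%. With only peaks that touch the gene end, there were 96 peaks and 97 genes, and the share at starts was 87.3%. The canonical element was found in 13.5% of the 52 windows with up to 2 mismatches and in 67.3% with up to 6. The neuronal share stayed between 27.8% and 33.0% in all settings run. The alternative with all promoter windows that hold any peak midpoint, added after the data were seen, gave 30.0% for the canonical element. No paired analysis was possible because the deposited list joins both replicates, and leaving out a replicate could not be run for the same reason. The depth is unknown, so an end without a peak is not shown to be unbound.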
